A study of Mus musculus with 56 samples.

Results

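Bacteroidales outside Muribaculaceae and Bacteroides are the smaller families of the order in the mouse gut. They were taken here as the amplicon sequence variants (ASVs) that the deposited table places in the order Bacteroidales, but neither in the family S24-7, the Greengenes name of Muribaculaceae, nor in the genus Bacteroides. Of 938 ASVs in the table, 30 met this rule, and 27 of them had a count. They came from 7 genus-level taxa: Prevotella and unnamed members of Paraprevotellaceae, Parabacteroides of Porphyromonadaceae, AF12 and unnamed members of Rikenellaceae, Odoribacter of Odoribacteraceae, and ASVs with an order name and no family. Greengenes writes the names Paraprevotellaceae, Odoribacteraceae and this Prevotella in brackets, which mark names that it proposes itself. The 3 member ASVs without a count were 1 each of Paraprevotellaceae without a genus, Rikenellaceae without a genus and Bacteroidales without a family. The order held 146 ASVs in all, 103 of them in S24-7 and 13 in Bacteroides, and no Bacteroidetes count lay outside it.

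Bacterial 16S rRNA genes were sequenced from the gut contents of 28 male mice, at 2 sites, the small intestine (SI) and the large intestine (LI). The mice were housed singly in 1 room, and the diets began at 10 weeks of age and lasted 12 weeks. Wild-type C57BL/6J mice were bought from a breeder, and 6 of them were fed a normal diet (WT-ND) and 6 a Western diet (WT-WD). Of the MC4R knockout mice, 8 had the normal diet (KO-ND) and 8 the Western diet (KO-WD). MC4R is a hypothalamic receptor that limits food intake, and mice without it become obese. The knockout mice were not bought with the wild-type mice but had been generated separately, so genotype and the origin of the mice cannot be told apart in any comparison of KO with WT. In its discussion, the paper also states that both genotypes were bred and kept under the same conditions. All mice had the same chow and then the normal diet before the diets began. Total counts were 22550 to 35236 per library (median 29721). Cyanobacteria, to which plant chloroplasts are assigned, were at most 0.124% of a library.

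Bacteroidales are Gram-negative anaerobes that live by breaking down plant and host polysaccharides, with protein complexes of the outer membrane that bind a glycan, cut it and import the pieces. They release acetate, propionate and succinate, and some of them, such as Odoribacter, also butyrate, which the host absorbs. Muribaculaceae are usually the most abundant family of the order in laboratory mice. Parabacteroides and the Rikenellaceae, the family of Alistipes, are common residents beside them, and Prevotella and its relatives are known for the use of plant fibre.

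One library stood apart. In the LI of KO-WD replicate 5, which had the highest total of all libraries (35236 counts), every member ASV was at 0 and so was S24-7, while Bacteroides made up 23.1% of the library. A count of 0 there allows a share of up to 0.00851%. Several KO-WD results are therefore also given without this mouse.

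In the LI, the median summed share of the members was higher in KO than in WT mice on the same diet. Their summed share was 0.287% to 1.12% in WT-ND mice (median 0.784%) and 0.852% to 6.34% in WT-WD mice (median 1.67%). In KO-ND mice it was 1.14% to 20.0% (median 7.46%), and in KO-WD mice 0% to 7.48% (median 4.77%). The lowest KO-ND mouse lay just above the highest WT-ND mouse, so these ranges did not overlap, whereas those of WT-WD and KO-WD mice did. WT-WD replicate 3, with 6.34%, was the only WT mouse above 2.53%, and without it the WT-WD mean was 1.55% in place of 2.35%. The mean of KO-WD mice was 4.67% ± 2.46 (SD, n = 8), and 5.34% ± 1.71 (n = 7) without replicate 5. Without that mouse, Prevotella alone averaged 3.02% in the KO-WD group, beside 2.35% for all members together in WT-WD mice. The sums were not tested. In bulk contents, a larger share and a smaller amount of other bacteria cannot be told apart, since the files hold shares of a library and not cell numbers.

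**Figure D1:**
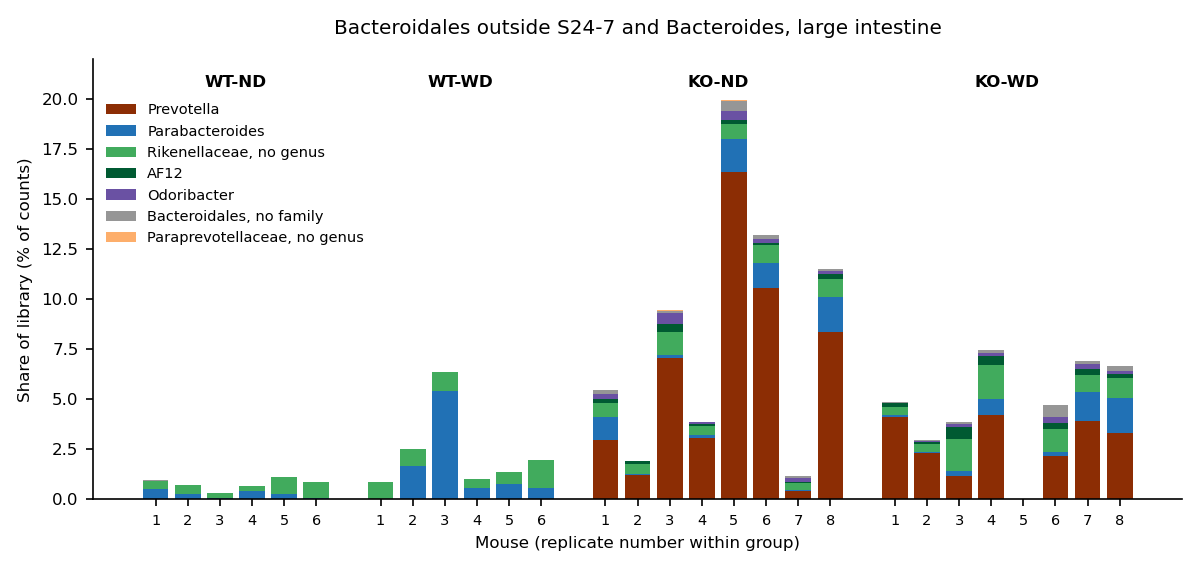
Share of each LI library (% of counts) held by the 7 member taxa, stacked, in 1 bar per mouse. Bars of WT mice hold Parabacteroides and Rikenellaceae almost alone, Prevotella is the larger part of the bar in 11 of the 15 KO mice with members, and KO-WD replicate 5 is at 0.

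Within the order, the members held a larger share beside S24-7 in WT-WD, KO-ND and most KO-WD mice than in WT-ND mice. They were 3.24% to 6.16% of the Bacteroidales counts in WT-ND mice and 9.52% to 40.3% in the WT-WD group, without overlap. In KO-ND mice they reached 52.5% (median 38.7%), with the lowest share in replicate 7 (293 of 2663 counts), and in KO-WD mice they ranged from 0% to 78.9% (median 40.1%). S24-7 held 92.5% to 96.1% of the order in WT-ND mice, 59.3% to 89.0% in WT-WD, 32.5% to 72.8% in KO-ND and 0% to 59.5% in KO-WD mice. Bacteroides held a median of 0.976%, 2.33%, 12.8% and 20.2% in the same order of groups. These are sums over the members and were not tested.

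The makeup of the members differed by genotype. Of all member counts in the LI, Rikenellaceae without a genus and Parabacteroides held 67.0% and 31.4% in WT-ND mice and 36.7% and 63.3% in WT-WD mice. Without WT-WD replicate 3 the order of the taxa in that group turned, to 55.2% and 44.8%. In KO mice, Prevotella alone held 75.4% on the normal diet and 5954 of 10632 counts on the Western diet. The counts of each taxon were tested by quasi-likelihood in edgeR between the LI libraries of the 2 groups compared, with library totals as the only scaling. P values were adjusted over all taxa of the rank by Benjamini-Hochberg, and an adjusted p under 0.05 was called. A standard error (SE) is given for each log2 fold change that both groups could set. Where a group was at 0 in all its libraries, only a lower bound of the fold is given, computed as if the whole group had held 3 counts, and it covers counting error only. Such a taxon entered the test through the counts of the other group alone. Its adjusted p therefore describes that absence and is no separate support for it.

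Prevotella, here the bracketed genus of Paraprevotellaceae, was found in KO mice and in no WT mouse. It gave 0 counts in all 12 WT libraries of the LI, which allows a share of up to 0.00166% in WT-ND and 0.00156% in WT-WD mice. All 8 KO-ND libraries held it, from 0.411% in replicate 7 to 16.3% in replicate 5 (median 5.05%). In KO-WD mice it had counts in 7 of 8 libraries, with 0% in replicate 5, a median of 2.82% and at most 4.19% in replicate 4. The spread among KO-ND mice was about as large as their mean, 6.25% ± 5.43 (SD, n = 8), while the 7 KO-WD mice that held it lay between 1.16% and 4.19%. Prevotella was at least 3759-fold higher in KO-ND than in WT-ND mice (edgeR, adjusted p = 1.62e-05) and higher in 8 of 8. It was at least 1696-fold higher in KO-WD than in WT-WD mice (adjusted p = 0.000702), and higher in 7 of 8. Without KO-WD replicate 5 the KO-WD mean was 3.02% ± 1.16 (SD, n = 7) and the bound 1938-fold (adjusted p = 4.27e-06). A single variant, ASV_010, held 99.1% to 100% of the genus in every KO mouse that had it. The other Prevotella variants, ASV_805 and ASV_849, had 8 and 6 counts in 1 KO-ND mouse each. Paraprevotellaceae without a genus had 33 counts in all, in the KO-ND replicates 3 and 5, and were too rare to be tested.

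AF12, a Rikenellaceae lineage known by its sequence label, followed the same pattern at a lower level. Its single variant, ASV_108, was at 0 in all 12 WT mice. Its share was 0.0737% to 0.384% in KO-ND mice (median 0.172%) and 0% to 0.605% in KO-WD mice (median 0.239%), and KO-WD replicate 5 alone of the KO mice was at 0. AF12 was at least 110.4-fold higher in KO-ND than in WT-ND mice (edgeR, adjusted p = 1.41e-05) and at least 176-fold higher in KO-WD than in WT-WD mice (adjusted p = 0.00171). The latter bound was 201-fold without KO-WD replicate 5 (adjusted p = 3.28e-05).

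Odoribacter, a genus of short-chain fatty acid producers, was also at 0 in all 12 WT mice. Its single variant, ASV_114, had counts in 7 of 8 KO-ND mice (0% to 0.569%, median 0.183%) and in 6 of 8 KO-WD mice (0% to 0.341%, median 0.146%). The KO mice without it were KO-ND replicate 2 and KO-WD replicates 1 and 5. It was at least 139-fold higher in KO-ND than in WT-ND mice (edgeR, adjusted p = 0.000524) and at least 85.8-fold higher in KO-WD than in WT-WD mice (adjusted p = 0.00722), or 98.0-fold without KO-WD replicate 5 (adjusted p = 0.00250).

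ASVs with no family were led by ASV_118, which held 719 of their 788 counts. As 1 taxon they were found in 8 of 8 KO-ND mice (0.0109% to 0.509%, median 0.114%) and in 7 of 8 KO-WD mice (0% to 0.568%, median 0.120%). A different variant, ASV_633, gave 21 counts (0.0701%) in WT-ND replicate 1, and the other 11 WT mice were at 0. They were at least 103-fold higher in KO-WD than in WT-WD mice (edgeR, adjusted p = 0.00619), or 118-fold without KO-WD replicate 5 (adjusted p = 0.00128). Against WT-ND mice, the log2 fold change of KO-ND mice was 3.73 (SE 1.48) and missed the threshold (adjusted p = 0.0686), and without WT-ND replicate 1 it passed (adjusted p = 0.000552). That of KO-WD mice was also 3.73 (SE 1.67, adjusted p = 0.123), and it too passed without that mouse (adjusted p = 0.00825). With all mice, DESeq2 (adjusted p = 0.0365) and limma (adjusted p = 0.00112) called the difference of KO-ND from WT-ND mice, and of the 2 only limma that of KO-WD mice (adjusted p = 0.0286). KO-ND replicate 5 and KO-WD replicate 6 had the highest values of their groups, and both lay far from the others.

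**Figure D2:**
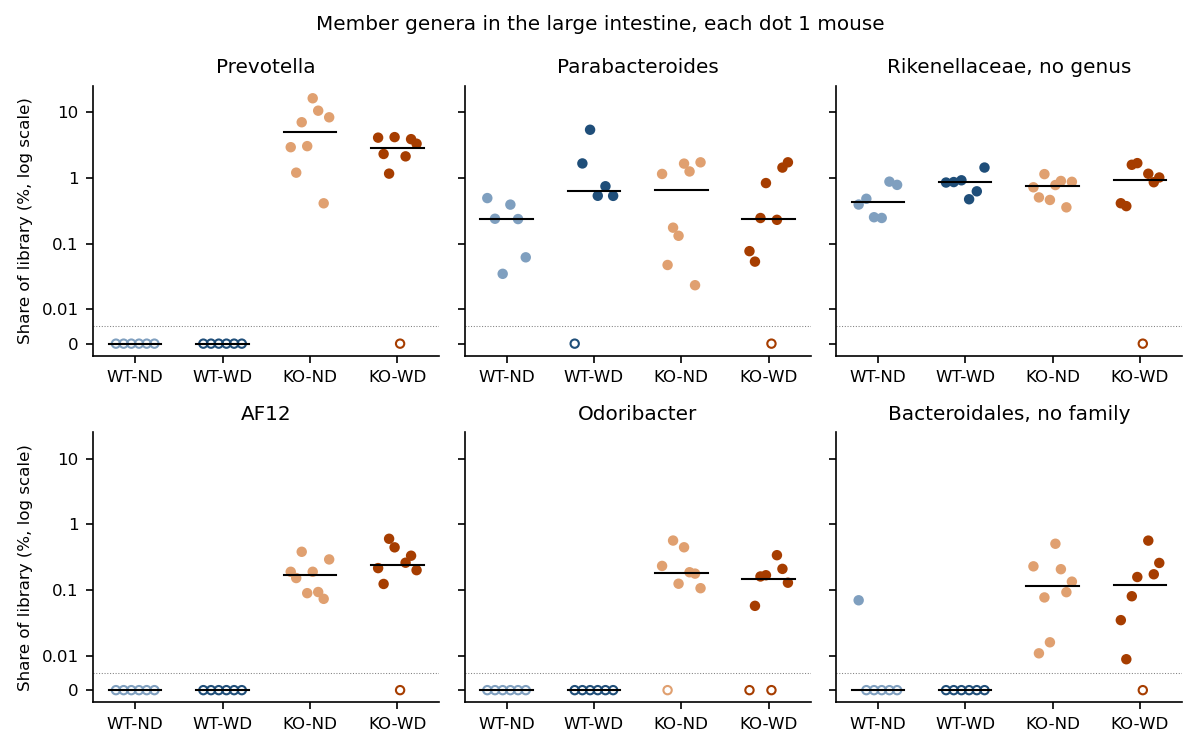
Share of the LI library (%, log scale) of 6 member taxa, with 1 dot per mouse, open dots below the dotted line for 0 counts and a bar at the median of each group. Prevotella, AF12 and Odoribacter are at 0 in all 12 WT mice, while Parabacteroides and Rikenellaceae without a genus overlap between all groups.

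Parabacteroides, a genus of generalist glycan degraders, was shared by the genotypes at the level of the genus. It was 0.0347% to 0.494% of the library in WT-ND mice (median 0.238%) and 0% to 5.42% in WT-WD mice (median 0.642%). In KO-ND mice it was 0.0233% to 1.73% (median 0.663%), and in KO-WD mice 0% to 1.73% (median 0.238%). All 4 ranges overlapped. WT-WD replicate 1 and KO-WD replicate 5 were the mice without a count, and WT-WD replicate 3, at 5.42%, had over 3 times the share of any other mouse. The genus passed in none of the comparisons of KO with WT mice in the LI. The log2 fold change was 1.66 (SE 0.97, edgeR, adjusted p = 0.241) for KO-ND against WT-ND and -1.36 (SE 1.31, adjusted p = 0.431) for KO-WD against WT-WD. Without KO-WD replicate 5 the latter was -1.17 (SE 1.17, adjusted p = 0.457).

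The variants of Parabacteroides were not the same in both genotypes. ASV_042 was 100% of the genus in all 11 WT mice that had it. It was present in 7 of 16 KO mice, where it was at most 38.7% of the genus. ASV_048 was at 0 in all 12 WT mice and present in 15 of 16 KO mice, at 0.0233% to 1.33% in KO-ND (median 0.527%) and 0% to 1.54% in KO-WD mice (median 0.183%). It was at least 354-fold higher in KO-ND than in WT-ND mice (edgeR, adjusted p = 0.000306). ASV_278, the one member variant with a species name (P. distasonis), was found in 9 of 16 KO mice and no WT mouse, at no more than 0.134%. For KO-ND against WT-ND, ASV_042 gave a log2 value of -0.72 by edgeR (SE 1.48, adjusted p = 0.748), while limma on centred log ratios called it lower, by -3.39 (adjusted p = 0.0422). KO-WD against WT-ND gave -2.30 by edgeR (SE 1.62, adjusted p = 0.299) and -4.59 by limma, which was called (adjusted p = 0.00646). Between KO-WD and WT-WD it was -4.90 (SE 1.84, adjusted p = 0.0344), and this call was lost without WT-WD replicate 3 (adjusted p = 0.117) and without KO-WD replicate 2, 3, 4 or 6 (adjusted p = 0.0509 to 0.0581).

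Rikenellaceae without a genus were found in more mice than any other member taxon. Their share was 0.246% to 0.879% in WT-ND mice (median 0.438%), 0.474% to 1.44% in WT-WD mice (median 0.859%), 0.357% to 1.14% in KO-ND mice (median 0.751%) and 0% to 1.68% in KO-WD mice (median 0.939%). Every mouse but KO-WD replicate 5 had them, and all 4 groups overlapped. The log2 fold change was 0.50 (SE 0.47, edgeR, adjusted p = 0.488) for KO-ND against WT-ND and 0.04 (SE 0.89, adjusted p = 0.982) for KO-WD against WT-WD, which was 0.23 (SE 0.49, adjusted p = 0.752) without KO-WD replicate 5. The whole family, with AF12, gave 0.83 (SE 0.49, adjusted p = 0.210) and 0.43 (SE 0.93, adjusted p = 0.722). Between KO-WD and WT-ND mice, the family gave 1.20 (adjusted p = 0.373), and without KO-WD replicate 5 it gave 1.39 (SE 0.51, adjusted p = 0.0425).

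The taxon passed in none of the comparisons of KO with WT mice, while the variants within it differed between the genotypes. ASV_051 was present in 12 of 12 WT mice, at 0.246% to 0.879% on the normal diet and 0.474% to 1.44% on the Western diet, and absent from the counts of all 16 KO mice. In WT mice it was 100% of the unnamed Rikenellaceae, apart from WT-WD replicate 1 (93.1%). It was at least 402-fold lower in KO-ND than in WT-ND mice (edgeR, adjusted p = 4.22e-05) and at least 659-fold lower in KO-WD than in WT-WD mice (adjusted p = 0.000588). In KO mice the counts were divided among 10 other variants, led by ASV_064, ASV_140, ASV_156 and ASV_218. ASV_064 was present in 15 of 16 KO mice, at 0.140% to 0.510% in KO-ND (median 0.314%) and 0% to 0.829% in KO-WD mice (median 0.370%). The only WT mouse with it was WT-WD replicate 1, with 19 counts (0.0584%). Its log2 fold change for KO-WD against WT-WD was 5.29 (SE 1.97, adjusted p = 0.0338), a call that was lost without any 1 of WT-WD replicates 3, 4, 5 and 6 or KO-WD replicate 4 (adjusted p = 0.0512 to 0.0613). It stood without KO-WD replicate 5 (adjusted p = 0.0146). ASV_140 was at least 80.2-fold, ASV_156 at least 31.4-fold and ASV_218 at least 49.5-fold higher in KO-ND than in WT-ND mice (adjusted p = 0.000201, 0.00294 and 0.000314). ASV_156 was 0.0521% ± 0.0352 (SD, n = 8) in KO-ND and 0.165% ± 0.114 (n = 8) in KO-WD mice, where 5 of 8 lay above every KO-ND mouse. The log2 fold change between these diets was 1.66 (SE 1.40) and was not called (adjusted p = 0.968), nor was it without KO-WD replicate 5, at 1.85 (SE 1.04, adjusted p = 0.940).

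**Figure D3:**
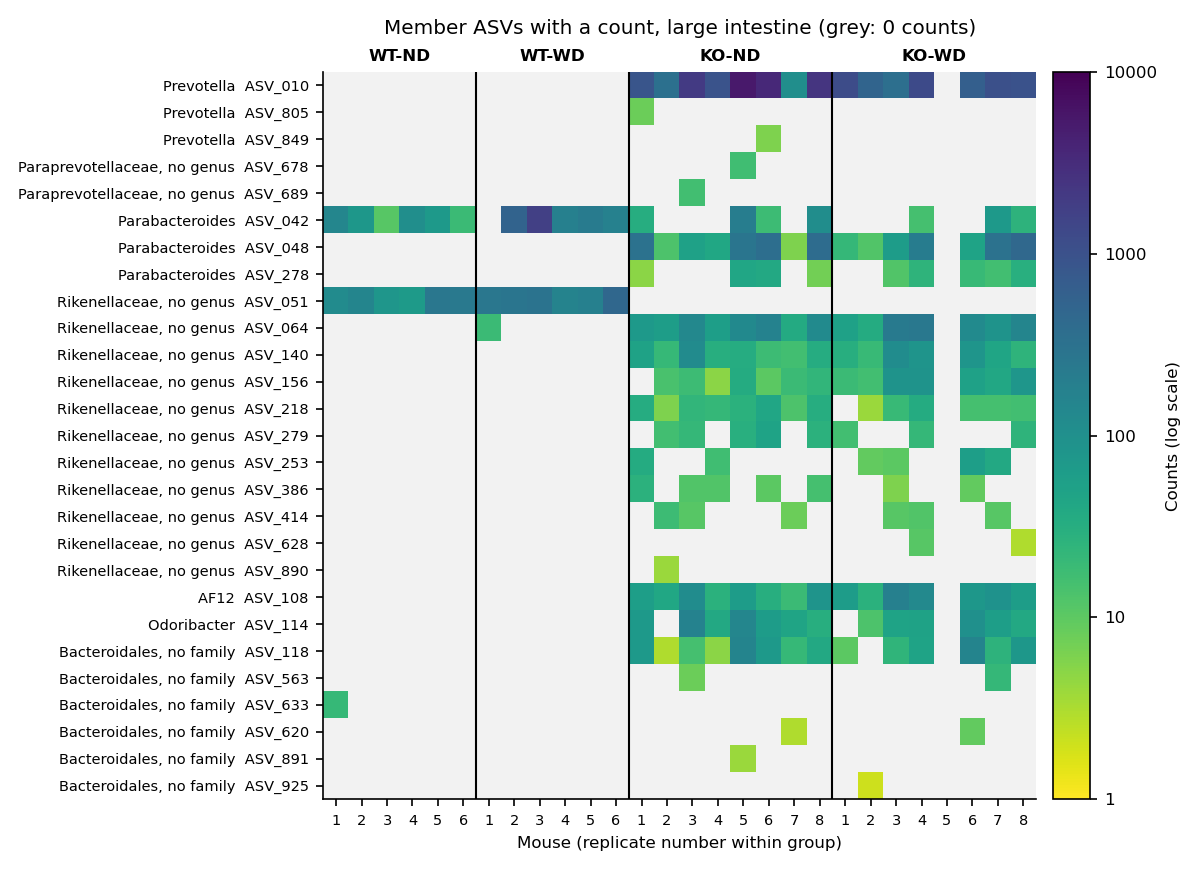
Counts of the 27 member ASVs with a count in the LI library of each mouse (colour, log scale; grey, 0 counts). ASV_051 fills the 12 WT columns and no KO column, ASV_010 fills 15 of 16 KO columns and no WT column, and ASV_042 appears in both genotypes.

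Counted over all members, 23 of the 27 ASVs were found in KO mice only, 2 in WT mice only and 2, ASV_042 and ASV_064, in both, over both sites. The share found in 1 genotype only was 92.6% for the members, 93.7% for S24-7, 100% for Bacteroides and 74.5% for all ASVs with a count. More ASVs were found in KO mice only than in WT mice only in S24-7 as well (60 and 29), in Bacteroides (10 and 2) and among all ASVs (349 and 295). A mouse of the WT-ND group held 2 to 3 member ASVs in the LI, a WT-WD mouse 2, a KO-ND mouse 11 to 14 and a KO-WD mouse 0 to 14. The number of all ASVs per mouse is not given here, so these numbers cannot be read as particular to the members. Presence was compared with Fisher's exact test (two-sided) for ASVs with a count in at least 4 LI libraries, which 16 members met. Of these, 12 were present in more KO mice at an adjusted p under 0.05, where the share over all 307 ASVs was 18.2%. Of the 16, 13 had LI counts in KO mice only and 1 in WT mice only, beside 44.6% of all 307 ASVs in 1 genotype only. They passed the filter through that genotype, so the number of calls describes that absence. The 2 that were present in more WT mice, ASV_051 (adjusted p = 2.02e-06) and ASV_042 (adjusted p = 0.0468), stand beside 16.6% of all ASVs. Among other Bacteroidales, 38 of 47 S24-7 and 6 of 10 Bacteroides ASVs differed in presence by genotype. By diet, 0 of 16 members differed (Fisher's exact test, lowest unadjusted p = 0.385), and 0.0% of all ASVs did. Genotypes were also compared within 1 diet, in fits chosen after the data were seen. On the normal diet, 10 of 14 members differed by genotype, beside 39.2% of all ASVs tested there. On the Western diet 9 of 13 did, beside 24.2%. Of the tested members, 12 and 10 had counts in KO mice only, and 1 each in WT mice only. ASV_042 was called in neither diet (Fisher's exact test, adjusted p = 0.162 and 0.258).

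The abundance tests of single variants gave calls of the same kind. For KO-ND against WT-ND, 12 of 14 tested members were higher (30.8% of all tested ASVs were) and 1 was lower (21.4%). For KO-WD against WT-WD, 11 of 13 were higher (27.5%) and 2 lower (17.6%), and for KO-WD against WT-ND, 11 of 13 were higher (28.7%) and 1 lower (19.1%). These 3 comparisons share groups. Of the tested members, 13, 11 and 12 were at 0 in 1 of the groups and passed the filter on low counts through the other, so the number of calls is a description of that absence. At the level of genera, 3 of 6 members were higher in KO-ND than in WT-ND mice (17.1% of all genera were), 4 of 6 in KO-WD than in WT-WD mice (19.5%) and 3 of 6 in KO-WD than in WT-ND mice (15.4%). Each of these calls was of a taxon at 0 in the WT group.

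No member differed between the diets past the threshold within a genotype. In WT mice, 0 of 2 tested genera (2.7% of all genera) and 0 of 2 ASVs (1.33%) differed between diets by edgeR, with 0 at an unadjusted p under 0.05 and 0 by DESeq2 and limma. Parabacteroides was higher in 5 of 6 WT-WD mice than in any WT-ND mouse. Its log2 fold change was 2.61 (SE 1.26), which was not called (adjusted p = 0.224). Its mean was 1.48% ± 2.00 (SD, n = 6) against 0.243% ± 0.180 (n = 6), and 0.696% ± 0.607 (n = 5) without WT-WD replicate 3. Rikenellaceae without a genus gave 0.77 (SE 0.53, adjusted p = 0.369). With library totals, the median log2 fold change of all genera was 1.11 in this comparison, and 0.47 with TMM factors, which gave 2.33 for Parabacteroides and 0.11 for these Rikenellaceae. Against WT-ND mice it was 0.54 for KO-ND (TMM, 0.76) and 0.52 for KO-WD mice (TMM, 0.77), and -0.64 for KO-WD against WT-WD mice (TMM, -0.62).

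In KO mice, 0 of 6 genera (0.0% of all genera) and 0 of 15 ASVs (2.66%) differed between diets by edgeR, with 0 members at an unadjusted p under 0.05. DESeq2 and limma called 0 members as well. The log2 fold change of KO-WD against KO-ND mice was -1.24 (SE 0.90, adjusted p = 0.578) for Prevotella, -0.79 (SE 1.07) for Odoribacter, -0.42 (SE 1.07) for Parabacteroides, 0.30 (SE 0.78) for Rikenellaceae without a genus and 0.58 (SE 0.80) for AF12. Without KO-WD replicate 5 the value for Prevotella was -1.05 (SE 0.64, adjusted p = 0.493).

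The interaction of genotype and diet was called by edgeR for 0 of 6 genera (0.0% of all genera), and by DESeq2 and limma for 0, with 1, Bacteroidales without a family, at an unadjusted p under 0.05. The only WT counts of that taxon were 21 in WT-ND replicate 1, so its value of 4.87 rests on that library. For Prevotella, AF12 and Odoribacter the interaction could not be estimated, since both WT groups were at 0. It was -3.03 (SE 1.69, adjusted p = 0.745) for Parabacteroides and -0.47 (SE 1.01, adjusted p = 1.00) for Rikenellaceae without a genus.

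Nearly all member counts came from the LI. In the SI, all 28 libraries together held 75 member counts, against 37134 in the LI. They were 47 counts of Parabacteroides ASV_042 in 5 WT mice, 24 of Rikenellaceae ASV_051 in WT-ND replicate 2, and 2 each of Rikenellaceae ASV_386 in KO-ND replicate 3 and ASV_064 in KO-WD replicate 1. No Prevotella, AF12 or Odoribacter count was found in the SI, and at most 0.0798% of an SI library was members. Those of WT mice were the variants that WT mice held in the LI. Between diets, the SI tests could be run for Parabacteroides and its ASV_042 in WT mice alone, and neither was called (edgeR, adjusted p = 0.526 and 0.753), beside 0.0% of all genera and 0.0% of all ASVs.

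Tested as groups of mice, each tested genus was called higher in the LI than in the SI. The single mouse that went the other way was WT-WD replicate 1, with 5 Parabacteroides counts in the SI (0.0161%) and 0 in the LI, and KO-WD replicate 5 was at 0 at both sites. With the mouse as a block, 2 of 2 genera were higher in the LI of WT-ND mice (38.7% of all genera were), 2 of 2 in WT-WD (39.5%), 6 of 6 in KO-ND (61.1%) and 6 of 6 in KO-WD mice (59.5%). Of the tested genera, 5 of 6 in each KO group and 1 of 2 in WT-WD mice were at 0 in the SI and passed the filter through the LI, so here too the number of calls describes that absence. In WT-ND mice, Rikenellaceae without a genus gave a log2 value of 8.47 (SE 1.87, edgeR, adjusted p = 0.00785) and Parabacteroides 6.25 (SE 2.03, adjusted p = 0.0274). The call of Parabacteroides was lost without WT-ND replicate 2 or 6 (adjusted p = 0.0846 and 0.0806) and, in WT-WD mice, without replicate 3 or 6 (adjusted p = 0.0586 and 0.0830). Prevotella, at 0 in the SI, was at least 4546-fold higher in the LI than in the SI of KO-ND mice (adjusted p = 1.04e-11) and at least 1819-fold in KO-WD mice (adjusted p = 6.56e-05). In KO-WD mice, DESeq2 and limma did not call Odoribacter (adjusted p = 0.146 and 0.152) or Bacteroidales without a family (adjusted p = 0.0528 and 0.0576).

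S24-7 was found at both sites. WT-ND replicate 4 had 4074 Bacteroidales counts in the SI, all of them S24-7 (13.4% of the library), and KO-ND replicate 5 had 1561, again all S24-7. In WT mice, members were 0.801% of the Bacteroidales counts in the SI and 11.8% in the LI, and in KO mice 0.183% and 36.0%, both pooled over mice. The SI values rest largely on those 2 mice: without WT-ND replicate 4 the members were 1.48% of the order in WT mice, and without KO-ND replicate 5 they were 0.638% in KO mice. By group, the SI values were 0.449% in WT-ND, 4.09% in WT-WD, 0.0930% in KO-ND and 5.26% in KO-WD mice. Of the 12 WT mice, all had Bacteroidales in the SI, and in 8 the exact 95% binomial interval of the members' share of the order lay below that of the LI. Of the 16 KO mice, 10 had Bacteroidales in the SI, and this held in 8 of them. The mice with the highest SI shares were WT-WD replicate 2, with 22 member counts among 69 of the order (31.9%, interval from 21.2%), and KO-WD replicate 1, with 2 among 9 (22.2%, interval from 2.81%). In the LI, the share was 28.1% (interval 26.5% to 29.8%) in the former, below its SI value, and 78.9% in the latter. The 6 KO mice without SI Bacteroidales were KO-ND replicate 7 and 5 KO-WD mice, and nothing can be said there of the members' share.

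**Figure D4:**
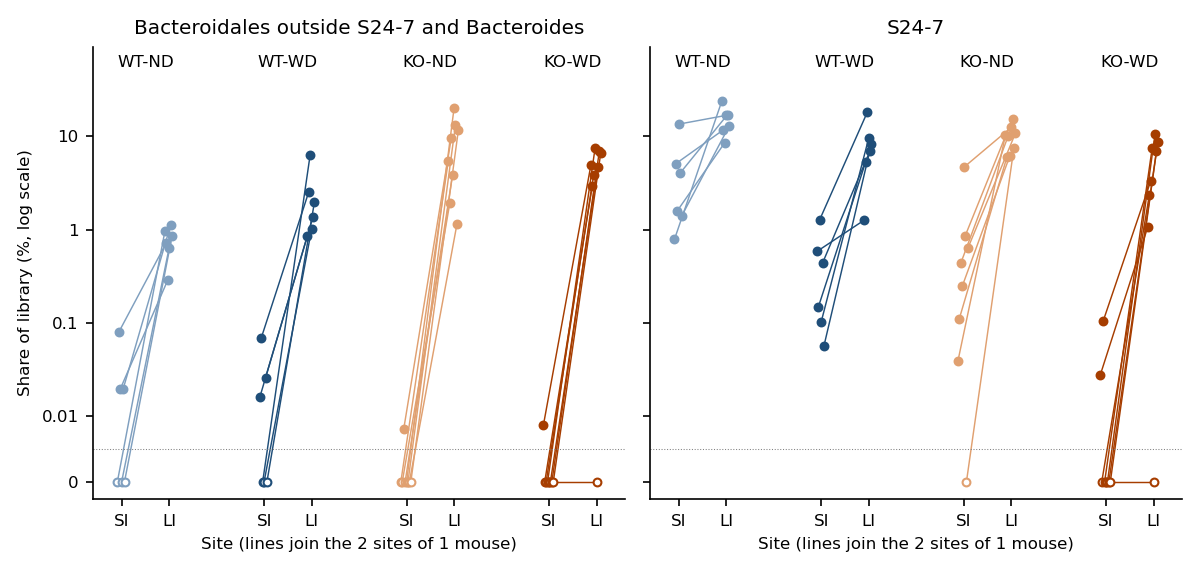
Share of the library (%, log scale; open dots below the dotted line, 0 counts) of the members (left) and of S24-7 (right) in the SI and LI, with a line for each mouse. Members are at 0 in the SI of 20 of 28 mice and at most 0.0798% in the others, while S24-7 reaches 13.4% in the SI.

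Within the KO mice, the shares of 6 member taxa in the LI were compared in all 15 pairs over 16 mice. All shares come from the same libraries and add to 1 total, and p values are from two-sided permutation tests, adjusted over the 15 pairs. AF12 and the unnamed Rikenellaceae of its family varied together most closely, with Pearson's r = 0.868 (permutation p = 2e-05, adjusted p = 0.0003) and Spearman's rho = 0.803 (permutation p = 0.00038, adjusted p = 0.0057). The r was 0.763 without KO-WD replicates 3 and 4, the mice farthest from the median of AF12, and 0.842 without KO-WD replicate 5. Within KO-ND mice r was 0.786 (exact permutation p = 0.0203) and within KO-WD mice 0.891 (exact permutation p = 0.00255). Prevotella and Parabacteroides had r = 0.627 (permutation p = 0.00601, adjusted p = 0.0451) and rho = 0.679 (permutation p = 0.00491, adjusted p = 0.0184). Without KO-ND replicates 5 and 6 this r was 0.528, and without KO-WD replicate 5, which was at 0 in all 6 taxa, it was 0.598. It was 0.751 within KO-ND (exact permutation p = 0.0302) and 0.540 within KO-WD mice (exact permutation p = 0.167). These were the 2 pairs past the threshold by r, and 5 were past it by rho. The other 3 were Parabacteroides with Bacteroidales without a family (rho = 0.762, permutation p = 0.00092, adjusted p = 0.0069), Odoribacter with the latter (rho = 0.711, permutation p = 0.00258, adjusted p = 0.0129), and unnamed Rikenellaceae with Parabacteroides (rho = 0.609, permutation p = 0.0142, adjusted p = 0.0425). Their r of 0.495, 0.583 and 0.320 missed it (permutation p = 0.0468, 0.0193 and 0.225, adjusted p = 0.138, 0.0965 and 0.338). Without the 2 mice farthest from the median these were 0.559, 0.835 and 0.249, and without KO-WD replicate 5 they were 0.460, 0.549 and 0.233. Within KO-ND mice they were 0.745, 0.482 and 0.454, and within KO-WD mice 0.276, 0.878 and 0.362. No rho is given without KO-WD replicate 5, which has the lowest or joint lowest rank in every pair.

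**Figure D5:**
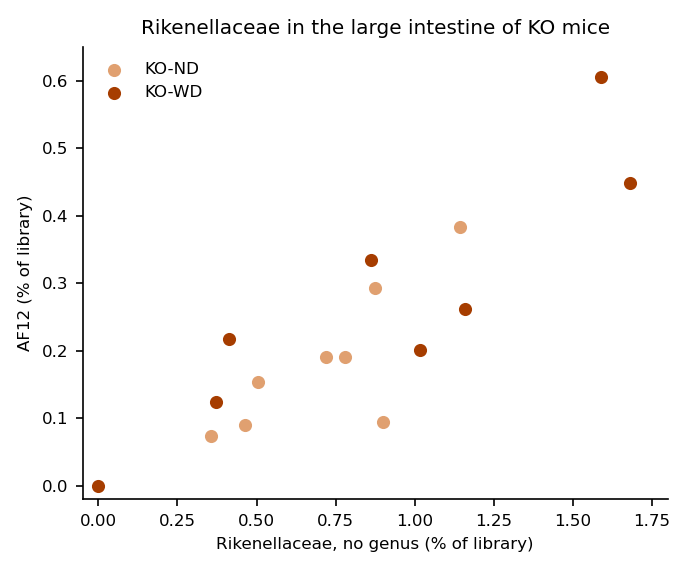
AF12 against Rikenellaceae without a genus, both in % of the LI library, in the 16 KO mice (1 dot per mouse, colour by diet). The dots rise together from KO-WD replicate 5 at 0 to KO-WD replicates 3 and 4, with r = 0.868 over all mice.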

How the data were processed

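The authors sequenced 16S V3-V4 amplicons on a MiSeq. Their tools, as the labels give them, were FASTX-Toolkit 0.0.14 (primer matching), Sickle 1.33 (quality), FLASH 1.2.11 (merging), DADA2 in QIIME 2 2021.4 (denoising) and Greengenes 13_8 (taxonomy). The deposited table holds raw counts per ASV, not normalized, and ASVs keep the ID given there.

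Counts were summed to genera and families. A taxon was tested where its share averaged 0.01% or more and 4 or more libraries of that fit held it, with edgeR 4.0.16 (quasi-likelihood, library totals, R 4.3.3). The code was tested on simulated data. The SE is the log2 fold change over the square root of F. Alternatives were DESeq2 1.42.0, limma 3.58.1 on centred log ratios, TMM factors, no filter, rank-sum tests, 1 fit of all groups, the replicate block and leaving out single libraries. Presence was tested with scipy 1.17.1. PCR reads are not independent molecules, so intervals and limits cover counting error only.

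Named were all member taxa with counts, then the ASVs that averaged 0.1% of a group or were called. Rarer ASVs were named after their values were seen. Members and lists were chosen with earlier results of these data known. SI and LI libraries of the same number were taken as 1 mouse (mean Bray-Curtis similarity 0.585, other pairs 0.473, one-sided permutation p = 1e-05, the smallest that 100000 permutations can give).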

Additional observations from a re-analysis of the deposited data

Results flagged for a closer look

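Single libraries far from the rest of their group were looked for in 25 sets of values, by the gap to the nearest library relative to the range, and chance gives such a gap in about 5% of sets. In the LI, Bacteroidales without a family reached 0.509% in KO-ND replicate 5 (others 0.0109% to 0.230%) and 0.568% in KO-WD replicate 6 (others 0% to 0.259%). Parabacteroides reached 5.42% in WT-WD replicate 3, where the others had 0% to 1.66%, and all of these counts were of ASV_042. The summed members of the same mouse were 6.34% (others 0.852% to 2.53%). In the SI, the summed members of WT-ND replicate 2 were 0.0798%, 24 counts of ASV_051, with 0% to 0.0196% in the others. What set these libraries apart was not tested.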

How the results depend on the processing

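Of 176 counts of called members under settings other than a left-out library, 166 stayed within 1.5 times the reported count. With the replicate block, which joins mice that share only a number (r of same-numbered deviations -0.558 to 0.581 in the LI), the genera called fell from 3 to 0 in KO-WD against WT-ND and from 4 to 0 in KO-WD against WT-WD mice, and the ASVs called in KO-WD against WT-ND mice from 12 to 7, all in the LI. Without the filter on low counts, 6 members were called in KO-WD against KO-ND LI (1 higher, 5 lower), each with counts in at most 2 mice. In the SI it called 1 genus and 2 ASVs lower in KO-WD against WT-ND, 1 and 1 in KO-WD against WT-WD, and 2 ASVs in KO-ND against WT-ND. Presence by genotype in mice on the Western diet alone gave 9 in place of 14. With single libraries left out, the called genera of LI against SI were 1 to 2 in WT-ND and 1 to 2 in WT-WD mice. For the replicate block and the fits without the filter, the calls over all taxa are not given here. The changes under these settings cannot be read as particular to the members.

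Of 94 single-taxon results under 1837 alternatives, 1756 kept direction and side of the threshold, 38 lost and 9 gained a call, and 34 turned in sign, none of them a called result. The cause was not tested. With limma on centred log ratios, Parabacteroides turned to -0.97 in KO-WD against WT-ND LI and to -0.37 in WT-WD against WT-ND SI. Rikenellaceae without a genus turned to -1.15 against WT-ND, -1.09 against KO-ND and -1.30 against WT-WD in KO-WD mice, and to -0.14 in KO-ND against WT-ND mice, and the whole family to -1.16, -0.59, -1.37 and -0.56. In KO-WD against KO-ND mice, AF12 turned to -0.46 and Bacteroidales without a family to -0.92. With DESeq2, the latter turned to -0.11, and with ranks to -0.0056, and the Rikenellaceae family to -0.042 in KO-WD against WT-WD mice. With TMM, Rikenellaceae without a genus turned to -0.012 in KO-WD against KO-ND mice and the interaction of the family to 0.32. With the replicate block, Parabacteroides turned to -0.63 in KO-WD against WT-ND mice, Rikenellaceae without a genus to -0.033 against KO-ND and -0.68 against WT-WD, and the family to -0.25 against WT-WD. With single libraries left out, Bacteroidales without a family ranged from -0.64 to 0.54 in KO-WD against KO-ND mice and Rikenellaceae without a genus from -0.16 to 0.25 in KO-WD against WT-WD mice.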
